A study of Mus musculus with 7 samples.

Results

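Basal epithelial cells line the outer side of prostate and other urogenital glands and sit on the basement membrane. Their identity depends on p63, the transcription factor encoded by Trp63, and they are held to the membrane by hemidesmosomes. In a hemidesmosome the integrin of α6 and β4 subunits binds laminin-332 outside the cell, and the plakin proteins plectin and dystonin tie it to keratin filaments inside. The tetraspanin CD151 associates with the laminin-binding integrins α6β4 and α3β1. The 9 genes described here are Trp63, Itga6, Itgb4, Lamb3, Lama3, Dst, Plec, Itga3 and Cd151. They were chosen by symbol from this biology, with earlier results of these data known. All 9 were found among the 16019 genes listed for every library.

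The 7 RNA-seq libraries were made from prostate of mice in which experimental autoimmune prostatitis (EAP), a model of inflammatory prostate disease, had been established. In 4 of them the mice had received LIT-927, a neutralising ligand of the chemokine CXCL12, as 25 mg/kg per day by intraperitoneal injection over 14 days. The other 3 came from EAP mice given only the solvent, methyl-β-cyclodextrin, over the same time, called vehicle here. All groups thus carried the disease model, and no sample without EAP was analysed here. The labels and design text name neither strain nor age, nor whether each library is a separate animal. All p-values therefore reflect only how much the samples differ within a group, and some of that may be technical.

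Levels are given as FPKM, which divide a gene's fragments by its length and by the library total, and differences are LIT-927 minus vehicle in log2(FPKM + 1). Whole fragments recovered from the FPKM steps summed to 32044052 to 35258551 per library, so depth was even. The make-up of the libraries was not even: the 10 most abundant genes took 36.6% to 64.6% of all FPKM in LIT-927 libraries and 22.2% to 72.3% with vehicle. Because FPKM are relative to the whole library, factors that bring the typical gene to the same level (median of ratios) were 0.813 to 1.16 in LIT-927 libraries and 0.665, 1.08 and 1.31 in vehicle replicates 4, 3 and 1. Replicate 3 of each group was high in most urothelial markers, genes of the urinary tract lining: of 8 markers, 6 were highest of their group in LIT-927 replicate 3 and 7 in vehicle replicate 3. The uroplakin gene Upk1a was at 253 FPKM in LIT-927 replicate 3 and 172 FPKM in vehicle replicate 3, and at most 10.1 and 9.78 FPKM in the other libraries of those groups. Against this, Upk1b had 19.7 FPKM in LIT-927 replicate 3 but 27.3 FPKM in LIT-927 replicate 4, and Gata3 was lowest of its group in replicate 3 of both groups, at 13.7 FPKM in LIT-927 and 38.6 FPKM in vehicle. Markers of prostate luminal cells were present in all libraries, summing to 6305 to 116621 FPKM in LIT-927 libraries and 3287 to 60544 FPKM in vehicle libraries, and seminal vesicle markers summed to 142402 to 301495 FPKM in LIT-927 libraries and 51017 to 563781 FPKM in vehicle libraries. Vas deferens markers summed to 19.9 to 20201 FPKM in LIT-927 libraries and 102 to 9621 FPKM in vehicle libraries. The part of RNA from these tissues in the results was not tested.

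With LIT-927 the mean difference was below 0 for 8 of the 9 genes, where 44.5% of all 16019 genes had a difference below 0. No member passed a Benjamini-Hochberg adjusted p of 0.05 in limma, and neither did any other gene (0% called). The median difference over the 9 genes was -0.38, beside 0.02 over all genes. No member's difference exceeded the spread between libraries. In bulk tissue, the number of basal cells, the RNA per basal cell and the other tissue in the sample cannot be told apart. With the pseudocount of 1 the largest member differences were those of Itga6 (-0.77), Lamb3 (-0.66), Lama3 (-0.51) and Itgb4 (-0.50), which encode integrin subunits and laminin chains of the hemidesmosome. That order depends on the pseudocount: with 0.1, Lama3 (-1.12) and Lamb3 (-1.05) were ahead of Itga6 (-0.92). Cd151 and Itga3, which many epithelial and other cells express, differed by -0.03 and 0.03. The unadjusted limma test called 0 members at 0.05, against 3.68% of all genes, and Lamb3 came nearest (limma unadjusted p = 0.0584). In no member did all LIT-927 libraries lie below all vehicle libraries, which 2.12% of all genes did.

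**Figure D1:**
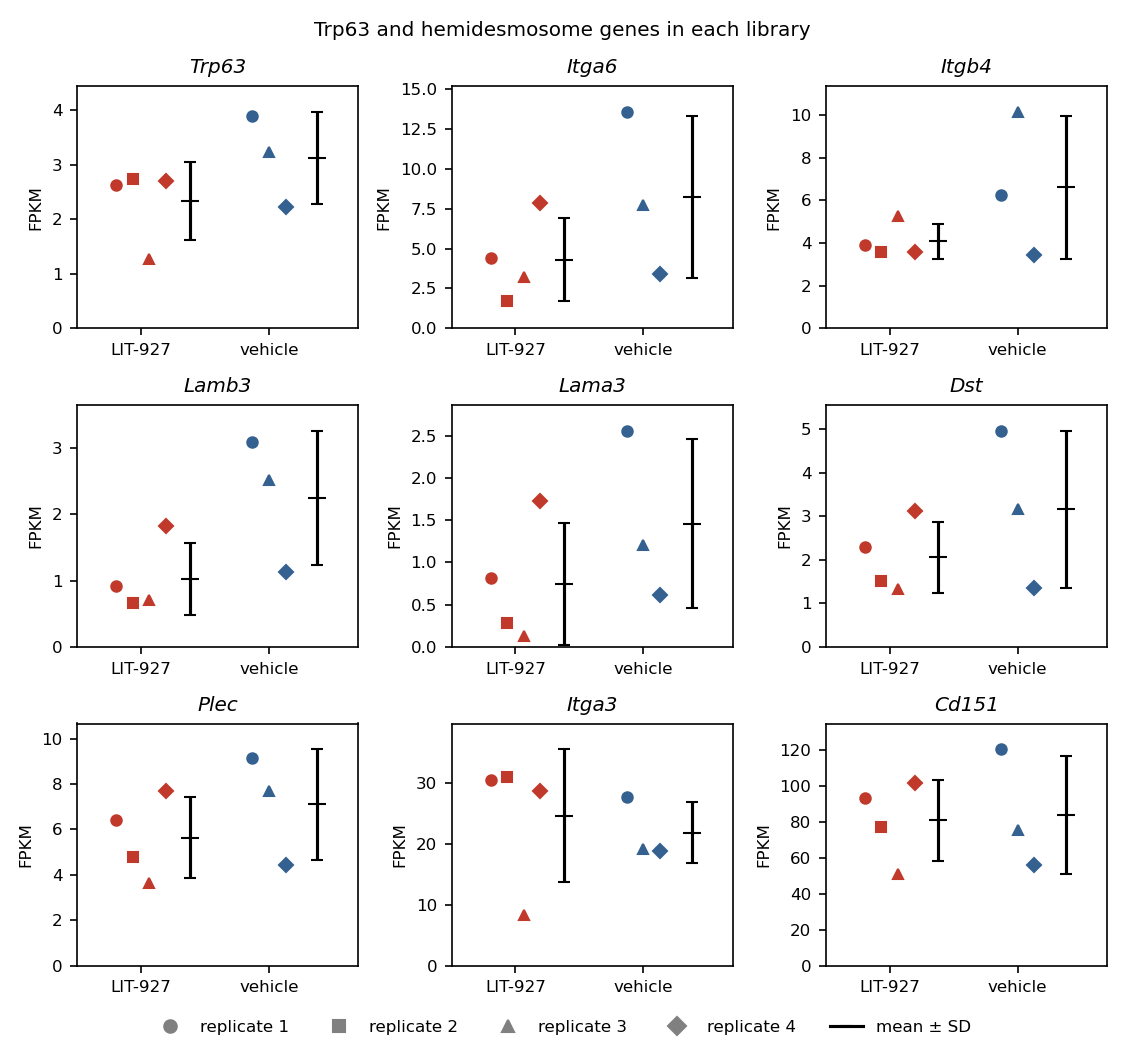
FPKM of the 9 genes in each library (LIT-927 left, n = 4; vehicle right, n = 3); symbols give the replicate number, bars the mean ± SD of the group, and each panel has its own axis from 0. The groups overlap in every panel, vehicle replicate 1 is highest in 7 panels and LIT-927 replicate 3 lowest in 6.

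Trp63 (mm10 chromosome 16, 25683763 to 25892102, plus strand), the p63 gene, was at 2.62, 2.74, 1.27 and 2.69 FPKM in LIT-927 replicates 1 to 4, against 3.90, 3.24 and 2.21 FPKM in vehicle replicates 1, 3 and 4. LIT-927 replicates 1, 2 and 4 were close together, LIT-927 replicate 3 lay far below them, and vehicle replicate 4 lay below those same LIT-927 libraries. The means were 2.33 ± 0.71 FPKM with LIT-927 (SD, n = 4) and 3.12 ± 0.85 FPKM in vehicle libraries (SD, n = 3). The Trp63 difference of -0.31 (SE 0.28; 95% interval -0.97 to 0.34) did not exceed the spread between libraries (limma adjusted p = 0.998). It was -0.14 without LIT-927 replicate 3, -0.18 without vehicle replicate 1, -0.48 without vehicle replicate 4 and -0.11 without replicate 3 of both groups. The Trp63 values rested on 249 to 805 fragments per library.

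Itga6 (chromosome 2, 71745616 to 71858416, plus strand), the α6 integrin subunit, was at 4.43, 1.71, 3.21 and 7.88 FPKM in LIT-927 replicates 1 to 4, against 13.6, 7.76 and 3.43 FPKM in vehicle replicates 1, 3 and 4. LIT-927 replicate 4 was above 2 of the 3 vehicle libraries, and LIT-927 replicates 2 and 3 were below all of them. Means were 4.31 ± 2.63 FPKM in LIT-927 libraries and 8.26 ± 5.10 FPKM in vehicle libraries (SD, n = 4 and 3), a difference of -0.77 (SE 0.52; limma adjusted p = 0.998). Leaving out 1 library gave -0.36 (vehicle replicate 1), -0.49 (LIT-927 replicate 2) and -1.22 (vehicle replicate 4). Endothelial cells also express this gene, and the summed FPKM of 7 endothelial markers was 5.37 to 44.2 in LIT-927 libraries and 24.3 to 93.7 in vehicle libraries, with none at 0 in any library. Its part in the Itga6 values was not tested.

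Itgb4 (chromosome 11, 115974709 to 116008412, plus strand), the β4 subunit that pairs only with α6, was at 3.90, 3.58, 5.29 and 3.56 FPKM in LIT-927 replicates 1 to 4, against 6.25, 10.2 and 3.46 FPKM in vehicle replicates 1, 3 and 4. The highest library of each group was replicate 3, the one high in most urothelial markers, and the lowest of all 7 was vehicle replicate 4. Means were 4.08 ± 0.82 FPKM in LIT-927 libraries and 6.62 ± 3.37 FPKM in vehicle libraries, a difference of -0.50 (SE 0.34; limma adjusted p = 0.998) that was -0.17 without vehicle replicate 3, -0.84 without vehicle replicate 4 and -0.28 without replicate 3 of both groups. The summed FPKM of 8 urothelial markers was 345 in LIT-927 replicate 3 and 307 in vehicle replicate 3, against at most 108 and 119 in the other libraries of those groups. Upk1a made up most of these high sums, while Upk1b and Gata3 were not highest in LIT-927 replicate 3, and Upk3a and Grhl3 were at 0 in some libraries. The part of urothelial RNA in the Itgb4 values was not tested.

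Although their proteins form one dimer, the 2 integrin genes did not keep a constant ratio. Itgb4 over Itga6 FPKM was 0.880, 2.09, 1.65 and 0.452 in LIT-927 replicates 1 to 4, against 0.460, 1.31 and 1.01 in vehicle replicates 1, 3 and 4. The vehicle range lay within the LIT-927 range. LIT-927 replicate 4 and vehicle replicate 1, which had the lowest ratios, had the highest Itga6 of their groups.

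Itga3 (chromosome 11, 95044474 to 95076801, minus strand), the α3 subunit of another laminin-binding integrin that pairs with β1, was at 30.6, 31.0, 8.38 and 28.6 FPKM in LIT-927 replicates 1 to 4, against 27.7, 19.1 and 18.8 FPKM in vehicle replicates 1, 3 and 4. LIT-927 replicate 3 was the lowest of all 7 libraries and the other LIT-927 libraries were above every vehicle library. On average it was at 24.6 ± 10.9 FPKM in LIT-927 libraries and 21.9 ± 5.1 FPKM in vehicle libraries. The difference of 0.03 (SE 0.46; 95% interval -1.03 to 1.09) was 0.46 without LIT-927 replicate 3 and turned to -0.03 with median-of-ratios scaling. The ratio of Itga3 to Itga6 FPKM was 6.90, 18.1, 2.61 and 3.63 in LIT-927 replicates 1 to 4, against 2.04, 2.46 and 5.49 in vehicle replicates 1, 3 and 4, again with overlap.

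**Figure D2:**
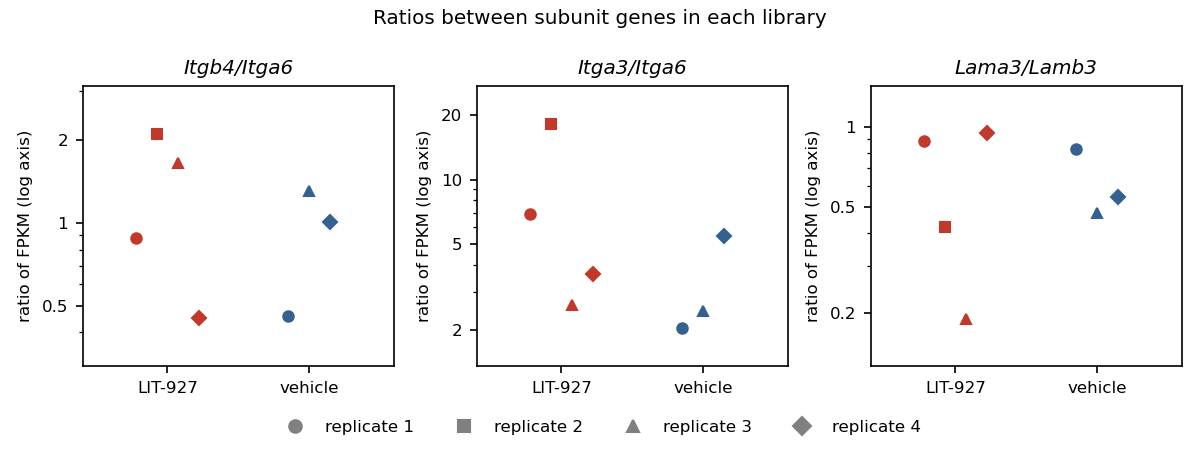
Ratios of FPKM between pairs of integrin and laminin chain genes in each library, on log axes (LIT-927 left, n = 4; vehicle right, n = 3). Groups overlap in every panel; Itgb4 over Itga6 spans 0.452 to 2.09 with LIT-927 and 0.460 to 1.31 with vehicle.

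Lamb3 (chromosome 1, 193207699 to 193343878, plus strand) encodes the β3 chain, which occurs only in laminin-332. It was at 0.920, 0.670, 0.704 and 1.82 FPKM in LIT-927 replicates 1 to 4, against 3.10, 2.52 and 1.13 FPKM in vehicle replicates 1, 3 and 4. LIT-927 replicates 1 to 3 were below every vehicle library, and replicate 4 was above vehicle replicate 4. Means were 1.03 ± 0.54 FPKM in LIT-927 libraries and 2.25 ± 1.01 FPKM in vehicle libraries, a difference of -0.66 (SE 0.30; 95% interval -1.35 to 0.03; limma adjusted p = 0.998). With a pseudocount of 0.1 it was -1.05, and with voom on recovered fragments -1.11. The values rested on 94 to 273 fragments in LIT-927 libraries and on 171 to 448 in vehicle libraries.

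Lama3 (chromosome 18, 12333819 to 12583013, plus strand), the α3 chain of laminin-332, had the widest spread of all members, 19.2-fold between the highest and the lowest library. It was at 0.814, 0.283, 0.133 and 1.73 FPKM in LIT-927 replicates 1 to 4, against 2.56, 1.2 and 0.616 FPKM in vehicle replicates 1, 3 and 4. LIT-927 replicates 2 and 3 lay below all vehicle libraries, while replicate 4 was above 2 of the 3. Means were 0.740 ± 0.722 FPKM in LIT-927 libraries and 1.46 ± 0.997 FPKM in vehicle libraries, a difference of -0.51 (SE 0.37; limma adjusted p = 0.998). This difference was -1.12 with a pseudocount of 0.1 and -1.33 with voom on recovered fragments. With 1 library left out it became -0.20 (vehicle replicate 1), -0.33 (LIT-927 replicate 3) or -0.77 (vehicle replicate 4). The lowest value, in LIT-927 replicate 3, rested on 51 fragments.

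Lama3 over Lamb3 FPKM was 0.885, 0.422, 0.189 and 0.949 in LIT-927 replicates 1 to 4, against 0.826, 0.476 and 0.546 in vehicle replicates 1, 3 and 4, so the vehicle range lay within that of LIT-927, as for the integrin pair. The ratios between genes were chosen after the values were seen and were not tested.

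Plec (chromosome 15, 76170974 to 76232574, minus strand), the plakin plectin that links β4 integrin to keratin filaments and is also abundant in muscle, was at 6.42, 4.80, 3.64 and 7.68 FPKM in LIT-927 replicates 1 to 4, against 9.16, 7.70 and 4.43 FPKM in vehicle replicates 1, 3 and 4. Its libraries spanned 2.52-fold from lowest to highest, the narrowest range of the members after Cd151. Means were 5.63 ± 1.78 FPKM in LIT-927 libraries and 7.10 ± 2.42 FPKM in vehicle libraries, a difference of -0.28 (SE 0.32; limma adjusted p = 0.998). Single libraries moved it to -0.09 (vehicle replicate 1 left out), -0.12 (LIT-927 replicate 3), -0.42 (LIT-927 replicate 4) and -0.54 (vehicle replicate 4), and it was -0.04 without replicate 3 of both groups. Its exons overlap those of Parp10 on the same strand, so reads there may have been shared. Summed FPKM of 7 smooth muscle markers was 855 to 5652 with LIT-927 and 2811 to 9981 with vehicle, none at 0, and its part in the Plec values was not tested.

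Dst (chromosome 1, 33908225 to 34308661, plus strand) encodes dystonin, whose epithelial form (BPAG1e) is the hemidesmosomal plakin, while longer forms occur in nerve and muscle. The FPKM steps imply that the authors divided by a length of 41141 bases for this gene, far longer than the epithelial transcript alone, so the forms are not separated and a level carried by the short form is understated. RefSeq (GRCm38.p6) lists separate start sites for the gene far apart, and the 250 bases before 2 of them are shown because the single deposited value does not separate them. Capitals mark CNNG followed after NNNNNN by another CNNG, the spacing shared by response elements of the p53 family, to which p63 belongs.
Dst, chr1:34011345-34011594, plus strand: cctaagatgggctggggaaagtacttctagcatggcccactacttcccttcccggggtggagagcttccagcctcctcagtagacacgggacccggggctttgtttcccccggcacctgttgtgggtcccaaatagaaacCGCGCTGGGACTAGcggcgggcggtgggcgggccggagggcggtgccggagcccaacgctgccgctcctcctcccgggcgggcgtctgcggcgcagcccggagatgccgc
Dst, chr1:34160010-34160259, plus strand: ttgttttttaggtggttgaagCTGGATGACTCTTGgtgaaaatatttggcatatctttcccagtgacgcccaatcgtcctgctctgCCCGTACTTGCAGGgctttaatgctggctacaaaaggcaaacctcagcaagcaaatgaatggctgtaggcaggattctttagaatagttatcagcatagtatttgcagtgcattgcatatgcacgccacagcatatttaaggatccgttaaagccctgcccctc
The upstream window held this pattern once and the downstream one 2 times. As a palindromic pattern it reads the same on both strands, and 63.5% of the 32851 RefSeq windows of the same length hold it, so most windows hold it. The AP-1 pattern TGANTCA, present in 6.75% of windows, was in neither. The GC box GGGCGG, on either strand, was found 4 times in the upstream window and 0 times in the downstream one, against 32.7% of windows that hold at least 1.

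Dst was at 2.29, 1.51, 1.32 and 3.11 FPKM in LIT-927 replicates 1 to 4, against 4.96, 3.18 and 1.35 FPKM in vehicle replicates 1, 3 and 4. LIT-927 replicate 3 and vehicle replicate 4 were almost equal at the low end, and vehicle replicate 1 stood highest. Its means were 2.06 ± 0.82 FPKM in LIT-927 libraries and 3.16 ± 1.80 FPKM in vehicle libraries, a difference of -0.38 (SE 0.37; limma adjusted p = 0.998) that was -0.07 without vehicle replicate 1, -0.74 without vehicle replicate 4 and -0.21 without replicate 3 of both groups. Schwann cells express this gene too, and the summed FPKM of 6 Schwann cell markers was 1.97 to 6.08 with LIT-927 and 1.89 to 18.7 with vehicle, none at 0. Its part in the Dst values was not tested.

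Cd151 (chromosome 7, 141467392 to 141471473, plus strand), the tetraspanin partner of the laminin-binding integrins, was the most abundant member. It was at 93.3, 77.5, 51.0 and 102 FPKM in LIT-927 replicates 1 to 4, against 121, 75.6 and 55.9 FPKM in vehicle replicates 1, 3 and 4. The groups overlapped over most of their ranges. It averaged 81.0 ± 22.4 FPKM in LIT-927 libraries and 84.0 ± 33.1 FPKM in vehicle libraries, a difference of -0.03 (SE 0.34; 95% interval -0.82 to 0.77) that turned to 0.27 without vehicle replicate 1 and to 0.18 without LIT-927 replicate 3, and was -0.28 without vehicle replicate 4. The 250 bases before its first RefSeq start, and those before a second Itga3 start, are given with the same capitals. With the Dst windows they are all the member windows in the RefSeq table that overlap no annotated exon of their own gene. Overlap of the windows with exons of other genes was not checked.
Cd151, chr7:141467112-141467361, plus strand: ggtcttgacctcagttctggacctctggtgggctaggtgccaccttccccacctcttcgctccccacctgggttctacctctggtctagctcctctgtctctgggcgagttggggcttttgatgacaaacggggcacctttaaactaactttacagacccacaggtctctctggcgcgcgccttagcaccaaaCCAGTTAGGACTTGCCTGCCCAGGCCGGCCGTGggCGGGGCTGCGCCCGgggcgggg
Itga3, chr11:95069199-95069448, minus strand: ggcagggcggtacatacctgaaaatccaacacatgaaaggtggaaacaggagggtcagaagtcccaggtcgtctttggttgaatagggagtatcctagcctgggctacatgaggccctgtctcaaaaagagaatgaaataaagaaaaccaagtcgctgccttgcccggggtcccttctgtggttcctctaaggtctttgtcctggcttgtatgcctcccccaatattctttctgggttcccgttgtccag
The Cd151 window held the pattern 5 times, in matches that partly overlap one another, and 2 GC boxes. The Itga3 window held it 0 times, and 1 GC box. A match describes letters only. The authors' strand setting is unknown here, and exons of Cd151, Dst, Itgb4 and Lama3 overlap transcripts of the opposite strand, whose reads may be included. Windows upstream of Lamb3, of the first Itga3 start and of another Cd151 start overlapped annotated exons of the same gene and are not shown. The RefSeq table matched 4 of the 9 genes.

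Per kilobase, the order of mean level over the 7 libraries was Cd151 (82.3 FPKM), Itga3 (23.5), Plec (6.26), Itga6 (6.0), Itgb4 (5.17), Trp63 (2.67), Dst (2.53), Lamb3 (1.55) and Lama3 (1.05). Cd151 exceeded Itga3 and Itga3 exceeded Plec in all 7 libraries. Plec exceeded Itga6 in 4 of 7 and Itga6 exceeded Itgb4 in 3 of 7, so the order of these genes changed from library to library. Itgb4 was above Trp63, Dst above Lamb3 and Lamb3 above Lama3 in all 7, while Trp63 and Dst changed places, with Trp63 higher in 4 of 7.

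**Figure D3:**
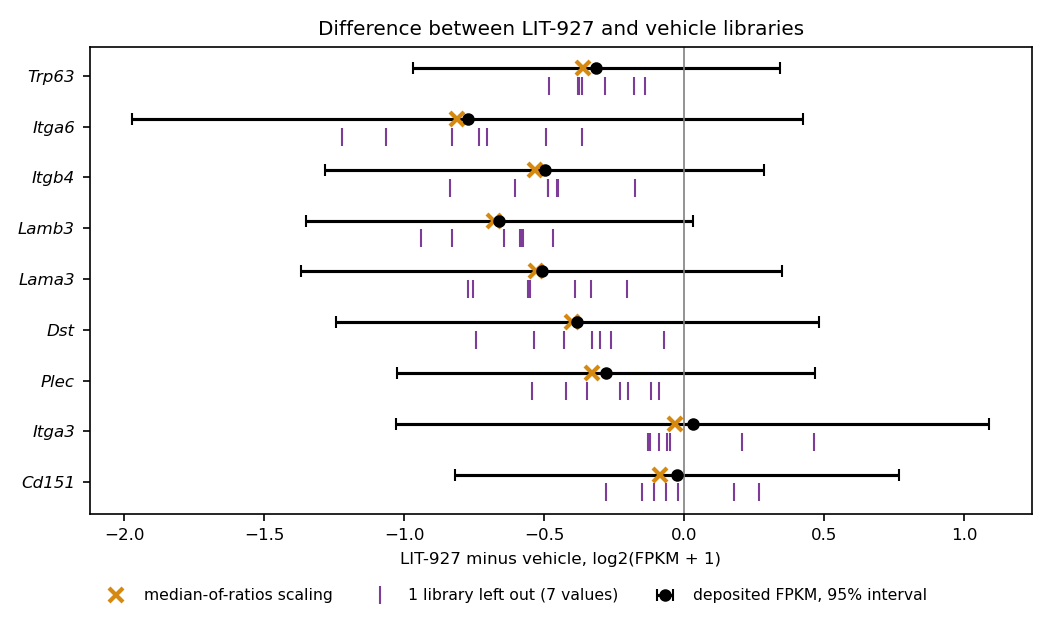
Difference between LIT-927 and vehicle libraries for each gene in log2(FPKM + 1): black points and bars give the limma estimate with its 95% interval, orange crosses the estimate after median-of-ratios scaling, and purple ticks the 7 estimates with 1 library left out. Every interval includes 0, and all estimates lie below 0 for 7 genes but cross 0 for Itga3 and Cd151.

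Vehicle replicate 1 was the highest library for 7 of the 9 genes, the exceptions being Itgb4 and Itga3, and LIT-927 replicate 3 was the lowest for 6. Over all genes, vehicle replicate 1 was highest for 47.0% and LIT-927 replicate 3 lowest for 31.8%, while vehicle replicate 4 was lowest for 51.1% and for 1 member only. The mean log2(FPKM + 1) over the 9 genes was 2.73, 2.42, 2.13 and 2.99 in LIT-927 replicates 1 to 4, against 3.40, 3.05 and 2.40 in vehicle replicates 1, 3 and 4. The library factors given above were also highest in vehicle replicate 1 and lowest in vehicle replicate 4.

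After median-of-ratios scaling the difference was below 0 for 9 of the 9 genes, with a median of -0.40, and the vehicle libraries of Trp63 and Plec came close together. Scaled Trp63 was 2.30, 2.69, 1.56 and 2.33 FPKM in LIT-927 replicates 1 to 4, against 2.98, 3.0 and 3.33 FPKM in vehicle replicates 1, 3 and 4. All LIT-927 libraries were then below all vehicle libraries for 3 of the 9 genes, Trp63, Lamb3 and Plec, where 4.99% of all genes did the same. For Plec the margin was narrow, with 6.63 FPKM in LIT-927 replicate 4 against 6.66 FPKM in vehicle replicate 4. Scaled Lamb3 averaged 0.977 ± 0.408 FPKM in LIT-927 libraries and 2.14 ± 0.38 FPKM in vehicle libraries, a difference of -0.68 (limma unadjusted p = 0.00761; adjusted p = 0.568). It was the 1 member with an unadjusted p under 0.05 after scaling, against 8.42% of all genes, and the adjusted p of Trp63 (-0.36) was 0.595 and that of Plec (-0.33) was 0.596.

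**Figure D4:**
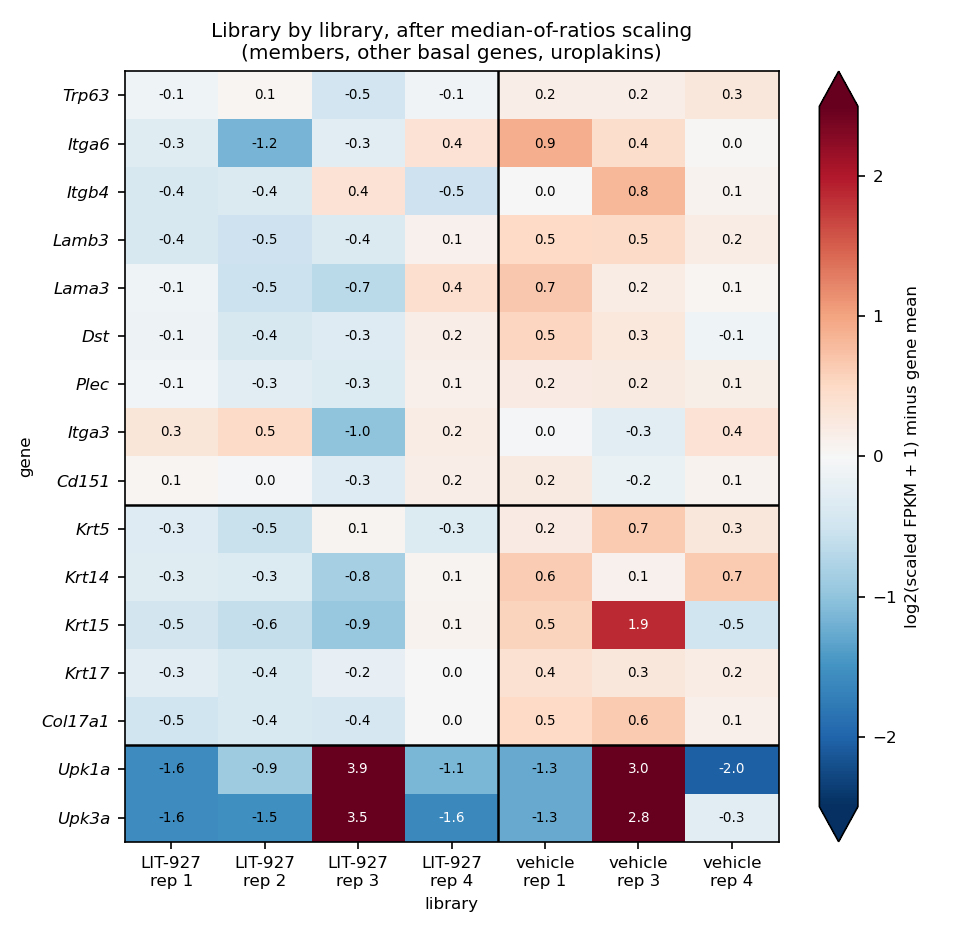
Log2(scaled FPKM + 1) of each gene minus its mean over the 7 libraries (columns; LIT-927 left, vehicle right) after median-of-ratios scaling, for the 9 members (top), other keratin and hemidesmosome genes (middle) and uroplakins (bottom); colours are cut at 2.5 in either direction. Trp63, Lamb3, Plec, Krt5, Krt14, Krt17 and Col17a1 are higher in every vehicle column than in any LIT-927 column, and replicate 3 of both groups is high in Upk1a and Upk3a and, among members, in Itgb4.

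Basal cell markers were present beside the members. Keratin genes Krt5 and Krt14, whose filaments attach to hemidesmosomes, were present in all 7 libraries. Krt5 averaged 13.4 ± 1.7 FPKM in LIT-927 libraries and 21.8 ± 7.8 FPKM in vehicle libraries, a difference of -0.61 (SE 0.28; limma unadjusted p = 0.0634, adjusted p = 0.998). Krt14 averaged 5.35 ± 2.21 FPKM in LIT-927 libraries and 9.64 ± 3.74 FPKM in vehicle libraries, a difference of -0.76 (SE 0.37). Of 11 basal markers, 11 had a difference below 0, with a median of -0.61, against 44.5% of all genes. None passed the adjusted threshold. Dsc3 of that list was at 0 in LIT-927 replicate 2 and vehicle replicate 4, and at most 0.14 FPKM in any library. Also below 0 were all 7 fibroblast (median -0.92), 7 smooth muscle (-0.74) and 7 endothelial (-0.74) markers. So were all 6 Schwann cell (-0.66), 7 skeletal muscle and 6 of 7 leukocyte markers, but 0 of 4 vas deferens and 5 of 8 seminal vesicle markers. Prostate luminal markers were below 0 for 7 of 9 (median -0.51) and urothelial markers for 7 of 8 (-0.16). After scaling, Krt5, Krt14 and Krt17 separated the groups, as did 4 of 7 leukocyte markers, against 4.99% of all genes. The summed level of the 11 basal markers was 35.8 to 72.2 FPKM in LIT-927 libraries and 43.7 to 159 FPKM in vehicle libraries. Krt5 over Trp63 FPKM was 5.52, 3.95, 10.8 and 5.37 in LIT-927 replicates 1 to 4, against 6.22, 8.66 and 5.89 in vehicle replicates 1, 3 and 4, so the ratio was highest in replicate 3 of each group. Leukocyte markers summed to 64.4 to 185 FPKM in LIT-927 libraries and 178 to 537 FPKM in vehicle libraries, with none at 0, and their part in the results was not tested.

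Among 11 partners of the hemidesmosome, 6 differences were below 0 and 5 above, with a median of -0.004, and none passed the adjusted threshold. Col17a1, the transmembrane collagen of the hemidesmosome, was at 0.370, 0.448, 0.321 and 1.03 FPKM in LIT-927 replicates 1 to 4, against 2.14, 2.07 and 0.680 FPKM in vehicle replicates 1, 3 and 4. Like Lamb3, it was lower in LIT-927 replicates 1 to 3 than in any vehicle library. The same held for genes of other lists, among them Lama2, Fbln1, Vwf, Lyz2 and Cd74, and the share of all genes was not computed. The Col17a1 difference was -0.74 (SE 0.27; limma unadjusted p = 0.0249, adjusted p = 0.998). It was the only partner with an unadjusted p under 0.05, against 3.68% of all genes, and was named after its values were seen. The 4 most abundant partners were broadly expressed genes: Cd9, Cd81 and Cd82, tetraspanins related to Cd151, and Itgb1, the subunit that pairs with α3. Itgb1 averaged 81.5 ± 36.5 FPKM in LIT-927 libraries and 105 ± 54 FPKM in vehicle libraries, a difference of -0.38 (SE 0.50). Cd82 averaged 77.0 ± 15.4 FPKM in LIT-927 libraries and 58.4 ± 10.04 FPKM in vehicle libraries, a difference of 0.39 (SE 0.24), and Cd9 and Cd81 differed by -0.004 and 0.10.

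Other basement membrane genes, expressed by many cell types, had 17 of 19 differences below 0 with a median of -0.56, and none passed the adjusted threshold. Col4a1, a collagen IV chain, averaged 21.4 ± 12.3 FPKM in LIT-927 libraries and 32.7 ± 22.4 FPKM in vehicle libraries (-0.64, SE 0.68), and its partner chain gene Col4a2 averaged 12.5 ± 7.9 FPKM in LIT-927 libraries and 23.1 ± 15.2 FPKM in vehicle libraries (-0.94, SE 0.68). Lamb2 and Dag1 differed by -0.02 and -0.03. Lama5, the laminin α5 chain, was at 6.07, 5.92, 2.90 and 6.97 FPKM in LIT-927 replicates 1 to 4, against 8.84, 8.03 and 3.09 FPKM in vehicle replicates 1, 3 and 4. Summed FPKM of 7 fibroblast markers was 61.4 to 216 with LIT-927 and 82.5 to 452 with vehicle, none at 0, and its part in these values was not tested.

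Genes that p63 is known to act on or accompany in stratified epithelium were split, with 8 differences below 0 and 11 above among 19 measured, a median of 0.05 and none past the adjusted threshold. Perp, a desmosomal membrane protein and p63 target in mouse skin, averaged 36.4 ± 22.2 FPKM in LIT-927 libraries and 46.4 ± 12.9 FPKM in vehicle libraries (-0.47, SE 0.42). In LIT-927 replicate 3, which was lowest for Trp63, Perp was highest of all libraries at 69.0 FPKM. Dsp, the desmosomal plakin desmoplakin, differed by 0.06, and Bcam, a laminin receptor, by -0.75 (SE 0.55). Bcam is counted among the basal markers as well.

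The pattern of Trp63 over the 7 libraries was compared with those of 11051 other genes of at least 1 FPKM on average, as the root mean square difference between profiles of log2(FPKM + 1) centred on each gene's mean. The profiles were not scaled, so they carry the differences in library factors. After scaling, Trp63 was highest in vehicle replicate 4 (3.33 FPKM) and no longer in vehicle replicate 1. The nearest genes were Ampd2 (0.083), Jag1 (0.087), Lrwd1 (0.089), Slk (0.091) and Mapkbp1 (0.098). Jag1, a Notch ligand, was at 1.18, 1.16, 0.359 and 1.29 FPKM in LIT-927 replicates 1 to 4, against 1.91, 1.23 and 0.692 FPKM in vehicle replicates 1, 3 and 4. Of the members, Plec was nearest to Trp63 (0.19), with 4.07% of the other genes nearer, followed by Cd151 (0.24) and Dst (0.29). Itgb4 (0.47) and Itga6 (0.61) were farthest, with 76.5% and 86.6% of other genes nearer. The measure grows with a gene's own range: a gene with no change at all would score 0.32 and the median gene scored 0.34, so a high score of a gene as variable as Itga6 does not show that its pattern is unlike that of Trp63.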

How the data were processed

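Prostate RNA was isolated by TRIzol, and sequencing libraries came from a VAHTS RNA-seq preparation kit, per the labels' protocols. Tools named by the submitters' processing notes are HISAT2, HTSeq and fastp, with build mm10. Their versions, the annotation, the strand setting and any gene filter are not stated there. The authors deposited FPKM: the headers call the values expression, and the unit was read from their steps, which imply whole gene lengths. From these steps whole fragments were recovered (within 0.01 for 99.999% of values), to state depth and for 1 alternative. The test was limma 3.58.1 (R 4.3.3) with a mean-variance trend, fitted to log2(FPKM + 1) with 7 libraries, no covariate, no filter, Benjamini-Hochberg adjustment over 16019 genes and a threshold of 0.05. The files used here hold FPKM, so no count test is a main result. The code was tested on simulated data.

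The members and gene lists were chosen with earlier results of these data known. Named genes are the 9 members, the 4 most abundant genes of each related list and the 5 profiles nearest to Trp63; others are said to be chosen after their values were seen or serve as markers, and some genes that the rule names are not reported here. Ratios, Lama5, Krt17 and Upk3a were also chosen so. Krt5 and Krt14 are in both the partner and basal lists. Gene coordinates are from GENCODE M21, whose build equals mm10, and promoter windows from RefSeq GRCm38.p6. No pair of libraries of 1 group held an identical value above 0. Tables and figures used Python 3.11.15, NumPy 2.4.6, pandas 2.3.3 and matplotlib 3.10.9.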

Additional observations from a re-analysis of the deposited data

Results flagged for a closer look

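In the group of 4 LIT-927 libraries, replicate 3 lay apart for 2 of the 9 genes by Dixon's criterion, which chance alone meets in about 1 in 20 groups. The criterion was applied to these 9 genes only, so the share of all genes that meet it is not known. Replicate 3 of LIT-927 was the lowest of all 7 libraries for 31.8% of all genes. Trp63 was at 1.27 FPKM there, against 2.62 to 2.74 FPKM in the other LIT-927 libraries, a gap of 0.922 of the group's range. Itga3 was at 8.38 FPKM there, against 28.6 to 31.0 FPKM, a gap of 0.896 of the range. The same library had the highest summed urothelial markers (345 FPKM) and prostate luminal markers (116621 FPKM) of all 7. The luminal sum was almost all Sbp (114916 FPKM). Of the other luminal markers, Hoxb13 (377 FPKM) was highest there, while Tgm4 (26.0 FPKM) and Cd24a (198 FPKM) were lowest. LIT-927 replicate 3 also had the lowest summed markers of vas deferens (19.9 FPKM, against 7395 to 20201 FPKM in the other LIT-927 libraries), smooth muscle (855 FPKM), endothelium (5.37 FPKM) and fibroblasts (61.4 FPKM).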

How the results depend on the processing

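No gene, member or other, passed the adjusted threshold in limma under any of the 14 alternatives, which were a pseudocount of 0.1, a low-value filter (at least 1 FPKM in 3 libraries), scaling by median of ratios or by upper quartile, voom fitted to the recovered fragments, a replicate block, each library left out, and replicate 3 of both groups left out. Of all genes, 589 had an unadjusted p under 0.05 as reported, between 294 and 1334 did with 1 library left out, and 1349 and 1264 did after median-of-ratios and upper-quartile scaling. The median member difference of -0.38 ranged from -0.74 (without vehicle replicate 4) to -0.18 (without vehicle replicate 1), where the median of all genes was -0.12 and 0.14, and it was -0.21 without replicate 3 of both groups. Itga3 (0.03) was -0.034 with median-of-ratios scaling, -0.057 with upper-quartile scaling and -0.13 with the replicate block, and ran from -0.13 to 0.46 with 1 library left out. Cd151 (-0.03) was 0.14 without replicate 3 of both groups and ran from -0.28 to 0.27 with 1 library left out. The cause was not tested. The other 7 genes kept a difference below 0 in all 14 alternatives, and Lamb3 had an unadjusted limma p under 0.05 in 4 of them, with an adjusted p of at least 0.453 in every alternative.

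The replicate numbers were not taken to pair the samples: deviations from the group means correlated at 0.514, 0.760 and -0.0406 for numbers 1, 3 and 4, and LIT-927 replicate 4 correlated best with vehicle replicate 1 (0.658). With the replicate block the median member difference was -0.38 and 687 genes had an unadjusted p under 0.05, against 294 in the same 6 libraries without it. With 4 and 3 libraries, 95% intervals reached from -1.97 for Itga6 to 1.09 for Itga3, and the lowest Lama3 value rested on 51 fragments.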
